A study of Mus musculus with 8 samples.

Results

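The 83 cytosolic ribosomal protein genes measured here encode the proteins of the ribosome that translates nuclear mRNAs, 50 of them for the large and 33 for the small subunit. They were chosen by name: gene symbols that start with Rpl or Rps followed by a number and at most a short suffix, together with Rplp0, Rplp1, Rplp2 and Rpsa, with pseudogene rows and the Rps6 kinases left out. That rule found 84 of the 23282 rows listed, and 83 of them passed a filter on low counts that kept 13174 rows in all. The member that did not pass, Rpl10l, a paralogue of Rpl10, had 1 count in 1 of the 8 libraries and none in the others.

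RNA was taken from a muscle of the calf, the gastrocnemius, of C57BL/6 mice that the labels list as 4 weeks old. Each library was made from 500 ng of it with the QuantSeq kit, which reads the 3′ end of transcripts. The 2 RP libraries are from mice that received 1000000 Lewis lung carcinoma cells (LLC, a mouse lung tumour line) under the skin. After 2 weeks of tumour growth these mice were given an extract of the peony Paeonia lactiflora (made with 30% ethanol) by mouth at 100 mg/kg each day for 2 weeks. The 3 Control libraries are from mice with the same tumour cells given 200 µl of distilled water, and the 3 Normal libraries are from mice injected with saline in place of cells and given water. The study asked how the tumour and the extract act on muscle in cancer cachexia, the wasting that accompanies a tumour. The labels do not say that each library is a separate animal, so a p-value here measures only how far the samples spread, which may be technical, and the implanted cells are a single transplanted line.

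The labels of 6 libraries conflict. The groups follow the sample titles, but the tables and column headers of the 3 samples titled Normal carry the name Control, and those of the 3 titled Control carry the name Normal. If the table names hold, each difference between Control and Normal below changes its sign, and the comparisons of RP with these groups exchange places. The group names below are those of the titles.

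A ribosome needs nearly all of these proteins, and cells make them in step. Their mRNAs belong to the class that starts with a run of pyrimidines (C and T) at the cap, the TOP class, whose translation is held back or released through the kinase complex mTORC1 and the protein LARP1. In muscle, the amount of ribosomes sets much of the capacity to make protein, and some paralogues replace a common subunit protein in muscle and heart, as Rpl3l does for Rpl3.

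RefSeq promoter sequences (build GRCm38.p6) matched 62 of the 83 genes. A run of at least 8 pyrimidines, C or T, lay within 20 bases of a listed start in 33 of these 62 genes and in 35 of their 74 listed promoters (47.3%), against 21.0% of all 32841 promoters. The windows of 30 bases around the start, 15 on either side and read 5′ to 3′, are shown for genes that carry the results below, with complete runs of at least 8 pyrimidines in capitals. Rps27 is the member past the test's threshold, Rps15a is among the next in size of change, and Rps27l, Rpl22l1, Rpl3l and Rpl7l1 are paralogues of the classical subunit proteins.
Rps27: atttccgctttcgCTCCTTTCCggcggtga
Rps15a: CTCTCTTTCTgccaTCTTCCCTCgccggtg
Rps27l: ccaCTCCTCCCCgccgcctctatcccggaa
Rpl22l1: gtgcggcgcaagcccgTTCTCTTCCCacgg
Rplp0: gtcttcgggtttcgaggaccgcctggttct
Rpl3l: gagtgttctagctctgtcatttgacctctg
Rpl7l1: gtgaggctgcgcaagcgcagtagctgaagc
The windows lie at chr3:90213634-90213663 on the minus strand for Rps27, chr7:118116133-118116162 on the minus strand for Rps15a, chr9:66946071-66946100 on the plus strand for Rps27l and chr3:28805493-28805522 on the plus strand for Rpl22l1. Those of Rplp0, at chr5:115559452-115559481 on the plus strand, Rpl3l, at chr17:24727811-24727840 on the plus strand, and Rpl7l1, at chr17:46782642-46782671 on the minus strand, hold no such run. Rpl3l and Rps27l each have 2 listed promoters, and the first is shown.

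The stretch before the start of Rpl3l is shown because the values of this gene run opposite to those of most members below. Its 250 bases on the plus strand, chr17:24727576-24727825, hold 3 matches to CANNTG, the E-box recognised by muscle regulators of the MyoD family among many other proteins, in capitals.
Rpl3l: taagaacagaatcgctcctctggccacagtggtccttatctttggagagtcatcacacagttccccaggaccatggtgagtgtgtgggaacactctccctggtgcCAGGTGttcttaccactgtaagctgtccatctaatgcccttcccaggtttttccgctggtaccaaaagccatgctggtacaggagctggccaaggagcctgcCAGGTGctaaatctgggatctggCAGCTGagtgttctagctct
CANNTG, searched on both strands, matched in 45.9% of the members' promoters and in 66.2% of all promoters of that length. CCGGAAG, the core of binding sites of the ETS family of transcription factors, matched in 27.0% of the members' and 6.91% of all promoters, and TATAAA in 5.41% against 12.4%. A MEF2 site matched in 0 of the 74 member promoters, against 0.509% of all. The second listed promoter of Rpl3l, chr17:24732435-24732684, held 1 match to CANNTG, and no promoter sequence was matched for Rpl3. The matches describe letters in these windows and do not show binding. Their relation to the direction of change was not tested.

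Each library held between 9528011 and 12333767 counts. The members took 2.93 and 3.39% of counts in the RP libraries, 3.36, 3.22 and 3.18% in the Control libraries and 3.18, 4.15 and 3.76% in the Normal libraries. This is 3.16% ± 0.329 (SD, n = 2) in RP, 3.25% ± 0.0966 (SD, n = 3) in Control and 3.70% ± 0.486 (SD, n = 3) in Normal, with 95% Wilson intervals of at most 0.0121 percentage points to either side, which cover counting error only. The groups overlapped: Normal 1 held as small a share as the Control libraries, and Normal 2 and Normal 3 held more than any other library.

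Muscle markers were high throughout, with 8 of 8 detected and a summed level of 127937 to 134189 CPM (counts scaled to library size, with TMM factors) in RP, 104740 to 128468 in Control and 81999 to 115525 in Normal. Lymphocyte markers were near 0, with 0 of 6 passing the filter. Macrophage and endothelial markers were present in each library. The 6 fibroblast markers, all tested, summed to 7985 and 7753 CPM in RP, 8897 to 9783 CPM in Control and 5249 to 8438 CPM in Normal. Of these, the collagen gene Col1a1 had 8432 and 4633 counts in RP, 13201, 11011 and 11174 in Control and 4335, 1866 and 324 in Normal, lowest in Normal 3, the library with the highest median member level, while Dcn, a matrix proteoglycan, had its highest count in Normal 1 (both genes named after their values were seen). The part of fibroblasts in the members' levels was not tested. The red-cell and neutrophil lists differed between libraries far more than the ribosomal genes did. Haemoglobin genes took 0.862 and 3.83% of counts in RP, 1.47, 1.61 and 1.41% in Control and 4.57, 9.56 and 19.7% in Normal. The 10 neutrophil markers, 9 of which passed the filter, summed to 41.3 and 505 CPM in RP, 16.2 to 28.5 CPM in Control and 962 to 1973 CPM in Normal. The 8 tested red-cell markers, of 10 chosen, summed to 6399 and 27729 CPM in RP, 9128 to 11643 CPM in Control and 29590 to 161825 CPM in Normal. The granule gene Ltf had 0 and 16 counts in RP, 0 in each Control library and 11 to 45 in Normal.

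Levels of the members ranged widely around a shared pattern. Rplp1 had the highest mean over the 8 libraries, at 2323 CPM, before Rps14 at 1588 CPM and Rpl22 at 1328 CPM, and the lowest were Rpl7l1 at 39.5 CPM, Rps4l at 17.5 CPM and Rpl39l at 0.851 CPM. The 3′ kit gives about 1 read per transcript whatever its length, so these counts were not divided by length. Rplp1 encodes a protein of the stalk that recruits elongation factors, Rps14 a protein of the small subunit's mRNA platform, and Rpl22 an RNA-binding protein of the large subunit. Rpl39l, a paralogue of Rpl39 best known from testis, had between 2 and 17 counts per library, too few to place its groups.

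The members shared an order of libraries. Measured as log2 CPM relative to each gene's mean over the 8 libraries, the median member stood at −0.19 in RP 1 and 0.047 in RP 2. It stood at −0.10, −0.078 and −0.20 in the Control libraries and at −0.15, 0.27 and 0.42 in the Normal libraries. Normal 2 and Normal 3 were both above every Control library for 78 of the 83 members, against 22.5% of all genes tested. Normal 1 was the lowest Normal library for 80 members, against 35.7% of all genes, and was at or below the highest Control library for 60 members, against 64.0% of all genes. The 2 RP libraries differed as well, with RP 2 above RP 1 for 78 members, against 49.5% of all genes. For the mitochondrial ribosomal proteins, which serve the separate ribosome of mitochondria, Normal 1 was also the lowest Normal library for 56 of 77, and their medians in the Normal libraries were −0.24, −0.045 and 0.091, but Normal 2 and Normal 3 both exceeded every Control library for 14 of 77.

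**Figure D1:**
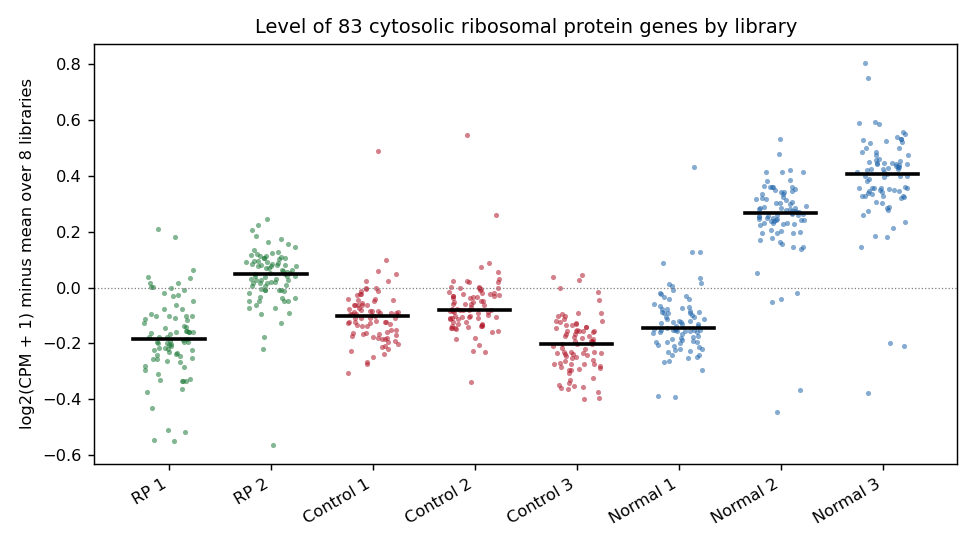
Each point is 1 of the 83 ribosomal protein genes in 1 library, as log2(CPM + 1) minus that gene's mean over the 8 libraries, and black lines are medians. Normal 2 and Normal 3 lie above the other libraries, while Normal 1 lies at the level of the Control libraries.

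The spread within groups also differed. The members' median coefficient of variation was 11.3% in RP (n = 2), 5.80% in Control (n = 3) and 19.7% in Normal (n = 3). For the 2832 genes with a mean of at least 50 CPM it was 7.75, 7.31 and 15.4% in the same order of groups.

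In Control against Normal, the tumour comparison, 1 of the 83 members passed edgeR's quasi-likelihood test at a Benjamini-Hochberg adjusted p of 0.05 over all 13174 genes, and it was lower. Of all genes tested, 10.4% passed, 5.45% lower and 4.99% higher. Of the 83 members, 80 had a log2 change below 0, against 49.9% of all genes, and the members' median log2 change was −0.31, against 0.00043 for all genes. The interquartile range of the members lay between −0.40 and −0.28, and the medians were −0.32 for the large and −0.30 for the small subunit. At an unadjusted p under 0.05, 30 members were lower and 1 higher, against 13.3% and 13% of all genes. In 21 members every Control library was below every Normal library, against 14.7% of all genes, and in 1, Rpl3l, every Control library was above, against 16.6%.

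Rps27, a zinc-binding protein of the small subunit, was the member that passed. It had 60.6 and 78.8 CPM in RP, 79.8, 82.3 and 72.6 CPM in Control and 97.4, 119 and 151 CPM in Normal. Its means were 69.7 ± 12.9 CPM in RP (SD, n = 2), 78.2 ± 5.04 CPM in Control and 122 ± 26.7 CPM in Normal (SD, n = 3 each). Every Normal library was above every other library, and the RP and Control libraries overlapped. Rps27 fell by 0.64 on the log2 scale in Control against Normal (SE 0.17, edgeR adjusted p = 0.0318), and the log2 change was −0.81 in RP against Normal (SE 0.20, edgeR adjusted p = 0.0497) and −0.17 in RP against Control (SE 0.20, edgeR adjusted p = 0.854). The gene lies at chr3:90212522-90213651 (mm10, minus strand).

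The next members by size, named here after their values were seen, did not pass. Rps20, a protein of the small subunit's head, had 895 and 1079 CPM in RP, 963, 1011 and 959 CPM in Control and 1015, 1449 and 1970 CPM in Normal, a log2 change of −0.60 in Control against Normal (SE 0.21, edgeR adjusted p = 0.0831). Rps15a, another small-subunit protein, had a log2 change of −0.56 (SE 0.17, edgeR adjusted p = 0.0543). In Rps20, Normal 1 lay just above the highest Control library, and Normal 3 lay far above both.

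Rplp0, Rplp1 and Rplp2, which together form the stalk, and Rpsa, a small-subunit protein first described as a laminin receptor precursor, did not pass the test in Control against Normal. Rplp1 had 2073 and 2368 CPM in RP, 2100, 2248 and 1971 CPM in Control and 1910, 2763 and 3152 CPM in Normal, so that the Normal libraries lay on both sides of the Control range. Its log2 change was −0.31 in Control against Normal (SE 0.18, edgeR adjusted p = 0.306). For Rplp0, Rplp2 and Rpsa the log2 changes were −0.17, −0.38 and −0.30.

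**Figure D2:**
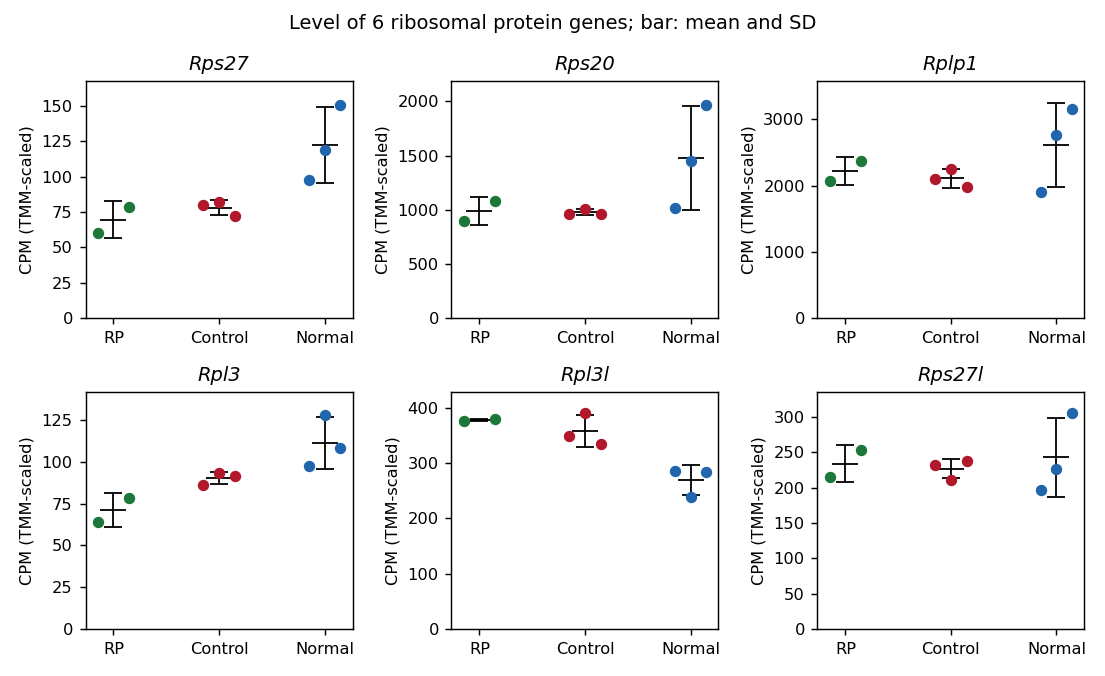
CPM of 6 ribosomal protein genes in the RP (n = 2), Control (n = 3) and Normal (n = 3) libraries, with bars for the mean and SD and axes that start at 0. Rpl3, Rps20 and Rps27 are lower in the Control than in the Normal libraries without overlap, and Rpl3l is higher without overlap. Rplp1 and Rps27l overlap. Of all genes, 14.7% were lower and 16.6% higher without overlap.

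Which members passed rested on single libraries. Without Normal 1, 56 members passed in Control against Normal, 55 lower and Rpl3l higher, against 14.2% of all genes, and the members' median log2 change was −0.46. Without Normal 2, Normal 3 or any 1 of the Control libraries, 0 members passed by edgeR. Of all genes, 6.16% passed without Normal 2, 11.5% without Normal 3 and 4.65 to 6.44% without a Control library. DESeq2 on all libraries called 10 of the 83, 9 lower and Rpl3l higher, against 12.8% of all genes. Normal 1 is not apart in the labels, and it is kept in every value given here unless stated.

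**Figure D3:**
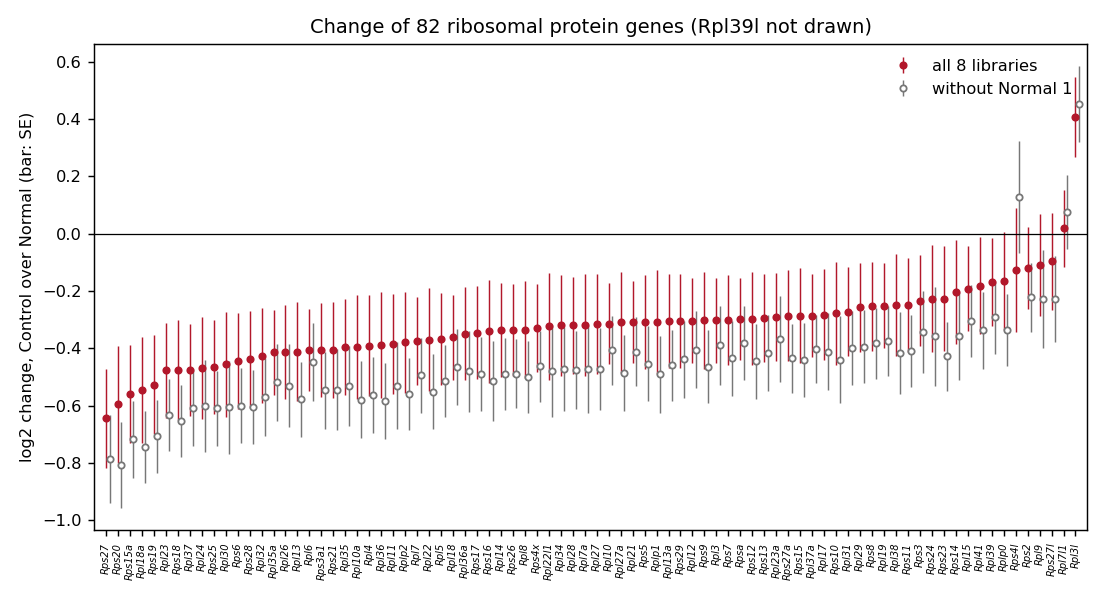
Log2 change, Control over Normal, with its SE for 82 members (Rpl39l, with at most 17 counts in a library, is not drawn), from all 8 libraries (filled) and without Normal 1 (open). Nearly all members lie below 0 by a similar amount, and Rpl3l lies above 0 in both.

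Blood transcripts moved with the members. The libraries with the most haemoglobin, Normal 3 and Normal 2, had the highest median member level, and RP 2, with 3.83% haemoglobin, stood above RP 1, with 0.862%. Normal 1 did not follow this order: it held 4.57% haemoglobin and 962 CPM of neutrophil markers, more than any RP or Control library, with its members at the level of the Control libraries. When haemoglobin counts were taken out of the totals, the members took 2.95 and 3.53% in RP, 3.41, 3.27 and 3.23% in Control and 3.33, 4.58 and 4.69% in Normal. With log2 Hba-a1, a haemoglobin gene, as a covariate in the fit, the members' median log2 change turned to 0.15 in Control against Normal, with 68 of 83 above 0, and 0 members passed by edgeR, against 2.9% of all genes. Every Normal library held more haemoglobin than any Control library, so that haemoglobin and the group cannot be told apart by this covariate. In bulk muscle, fewer cells of a type and less RNA per cell cannot be told apart either. The part of blood in the members' levels was not tested beyond these values.

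**Figure D4:**
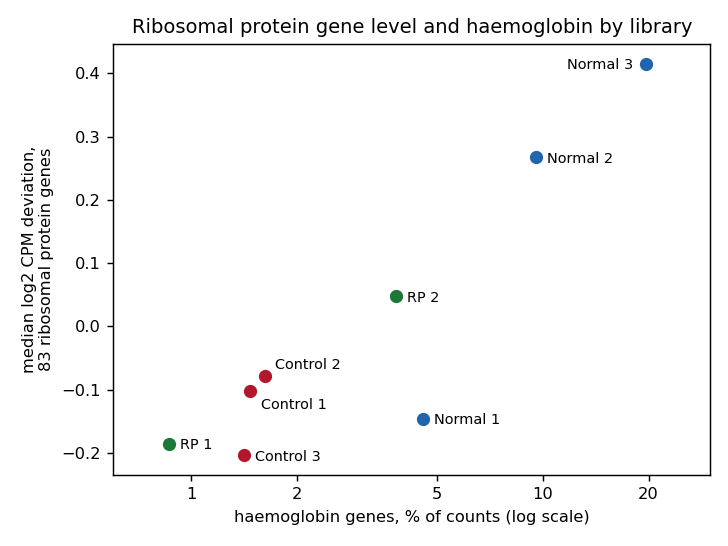
Median log2 CPM deviation of the 83 ribosomal protein genes against the percentage of counts in haemoglobin genes (log axis), 1 point per library. Normal 2 and Normal 3 are high on both axes, and Normal 1 has 4.57% haemoglobin with its members at the level of the Control libraries.

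Rpl3l had its values in the other direction. It encodes a paralogue of Rpl3, a protein next to the ribosome's catalytic centre, and is made in skeletal muscle and heart, where it takes the place of Rpl3. Rpl3l had 377 and 380 CPM in RP, 349, 390 and 334 CPM in Control and 286, 239 and 284 CPM in Normal. Its means were 378 ± 2.32 CPM in RP (SD, n = 2), 357 ± 28.9 CPM in Control and 269 ± 26.7 CPM in Normal (SD, n = 3 each). Every RP and Control library was above every Normal library, and the RP libraries lay within the Control range. The log2 change was 0.41 in Control against Normal (SE 0.14, edgeR adjusted p = 0.0829, DESeq2 adjusted p = 0.0443) and 0.49 in RP against Normal (SE 0.16, edgeR adjusted p = 0.118, DESeq2 adjusted p = 0.0460), so that the call depended on the tool. With the Hba-a1 covariate, which cannot be told apart from the group, its log2 change in Control against Normal was 0.44. The muscle markers summed to 127937 to 134189 CPM in RP, 104740 to 128468 CPM in Control and 81999 to 115525 CPM in Normal. Control and Normal overlapped in this sum. The part of muscle cells in the level of Rpl3l, and in its ratio to Rpl3 below, was not tested. Rpl3l lies at chr17:24727820-24736143 (mm10, plus strand).

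Rpl3 had 64.2 and 78.7 CPM in RP, 86.2, 93.2 and 91.7 CPM in Control and 97.8, 128 and 108 CPM in Normal, and the 3 groups did not overlap. Its log2 change was −0.30 in Control against Normal (SE 0.15, edgeR adjusted p = 0.215), −0.34 in RP against Control (SE 0.17, edgeR adjusted p = 0.580) and −0.64 in RP against Normal (SE 0.17, edgeR adjusted p = 0.0661). It was the only member with both RP libraries below every Control library, against 16.4% of all genes. Rpl3 lies at chr15:80077791-80091868 (mm10, minus strand). The last 200 bases of its transcripts also occur, at 95% identity or more, in transcripts of 10 other genes. None was found for Rpl3l, in a search that misses some copies, as given below.

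The ratio of Rpl3l to Rpl3 counts, which needs no scaling between libraries, was 5.86 and 4.83 in RP, 4.04, 4.18 and 3.64 in Control and 2.92, 1.86 and 2.62 in Normal. The mean was 5.35 ± 0.731 in RP (SD, n = 2), 3.96 ± 0.279 in Control and 2.47 ± 0.547 in Normal (SD, n = 3 each), and no library of a group reached into another. The ratio was 1.63-fold higher in Control than in Normal, 1.35-fold higher in RP than in Control and 2.19-fold higher in RP than in Normal. An exact 2-sided permutation test gave p = 0.1 in each of these comparisons, the smallest p these group sizes allow, and 0.36 after adjustment over 18 tests of 6 paralogue pairs in 3 comparisons.

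Rps27l, a p53-responsive paralogue of Rps27, overlapped between groups, with 216 and 253 CPM in RP, 233, 211 and 238 CPM in Control and 197, 227 and 305 CPM in Normal. The ratio of Rps27l to Rps27 was 3.56 and 3.21 in RP, 2.92, 2.57 and 3.28 in Control and 2.02, 1.91 and 2.03 in Normal. Here the Normal libraries lay close together, Normal 1 included, and below every other library, while RP and Control overlapped. The ratio was 1.46-fold higher in Control than in Normal (exact permutation p = 0.1, the smallest possible; 0.36 adjusted over the 18 tests) and 1.70-fold higher in RP than in Normal (exact permutation p = 0.1; 0.36 adjusted). These ratios use Rps27 without its copy row Rps27rt, which had 221 to 303% of the counts of Rps27 over the 8 libraries. The ratio depends on which of these rows a read was counted for, and that part was not tested. Rps27l lies at chr9:66946086-66949516 (mm10, plus strand).

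The other paralogue pairs overlapped between groups in every comparison. Rpl22l1 had 0.228 and 0.242 of the counts of Rpl22 in RP, 0.222, 0.208 and 0.262 in Control and 0.234, 0.185 and 0.249 in Normal. Rpl7l1, a relative of Rpl7, had 0.283 and 0.236 of its counts in RP, 0.267, 0.239 and 0.262 in Control and 0.253, 0.183 and 0.161 in Normal, where Normal 1 again stood with the Control libraries. Rpl7l1 itself had 44.7 and 45.6 CPM in RP, 37.7, 37.0 and 38.9 CPM in Control and 40.3, 37.9 and 33.9 CPM in Normal, a log2 change of 0.018 in Control against Normal. Rpl10, an X-linked protein that joins the large subunit late in its assembly and whose paralogue Rpl10l was not detected in 7 libraries, had 176 and 189 CPM in RP, 198, 201 and 182 CPM in Control and 209, 251 and 263 CPM in Normal. Its log2 change in Control against Normal was −0.31 (SE 0.14, edgeR adjusted p = 0.175), and every Normal library was above every other library. The classical partners Rpl22, Rpl7, Rpl39 and Rps4x had log2 changes of −0.37, −0.38, −0.17 and −0.33 in this comparison, and none passed the test. Rps4l had between 0.0390 and 0.0995 of the counts of Rps4x over the 8 libraries, with both ends in the Normal group.

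**Figure D5:**
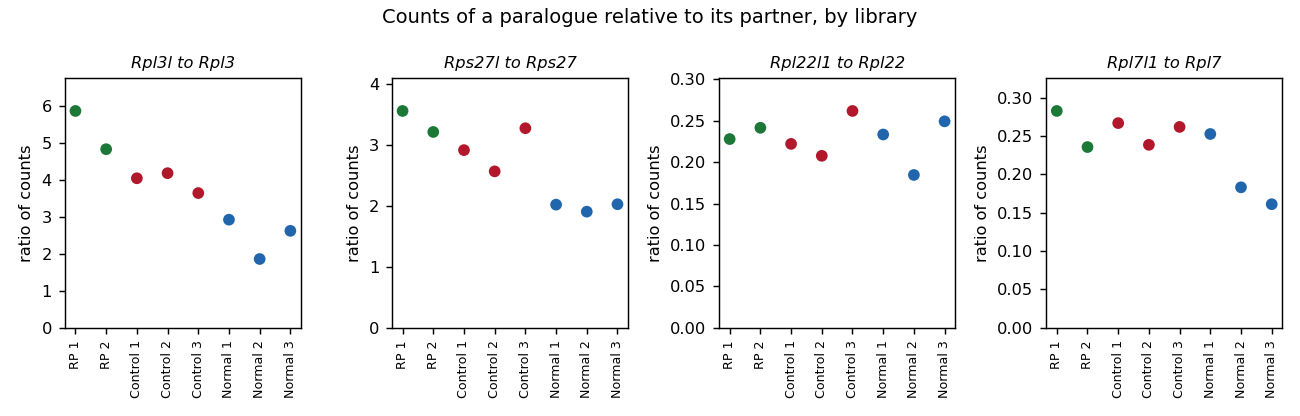
Ratio of the counts of 4 paralogues to those of their partners in each library, with axes that start at 0. For Rpl3l to Rpl3 the 3 groups do not overlap, for Rps27l to Rps27 the Normal libraries lie below all others, and the other 2 pairs overlap.

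In RP against Control, the extract comparison, 0 of the 83 members passed edgeR's test, against 0.175% of all genes (23 of 13174), 0.144% higher and 0.0304% lower. No member had an unadjusted p under 0.05, where 3.95% of all genes were higher and 5.03% lower, and DESeq2 called 0 as well. The SE of a member's log2 change in this comparison was 0.15 to 0.24, with Rpl39l left aside at 0.83, and changes of that size were not detectable with these libraries. The members' median log2 change was 0.068, against −0.0038 for all genes, and 19 of 83 were below 0, against 50.5% of all genes. Without RP 2 the median turned to −0.049, and without RP 1 it was 0.17, so that the sign rested on which RP library was kept. Both RP libraries were above every Control library in 14 members, against 15.3% of all genes, which is near the background. RP 2 alone was above every Control library for 69 members, against 30.1% of all genes, and RP 1 was below every Control library for 33, against 32.8%.

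In RP against Normal, 1 of the 83 members passed edgeR's test, Rps27 as given above, against 2.5% of all genes, 1.67% higher and 0.835% lower. At an unadjusted p under 0.05, 7 members were lower and 1 higher, against 8.33% and 8.78% of all genes. The members' median log2 change was −0.27, against −0.037 for all genes, and 80 of 83 were below 0, against 53.8% of all genes. The 3 members above 0 were Rpl3l, Rpl7l1 and Rps4l, at 0.49, 0.27 and 0.059. Both contrasts with Normal share the Normal libraries, and without Normal 1 the count in RP against Normal was 8 members, against 5.13% of all genes. The Rps27 call was lost with RLE or upper-quartile scaling, a block for the replicate number, added copy rows and the Hba-a1 covariate. It was also lost in a fit of the RP and Normal libraries alone.

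Reads of these genes can be counted for a copy. Of 9 rows named as copies of a member that passed the filter, Rps27rt had 221 to 303% of the counts of Rps27 over the 8 libraries, Rpl37rt had 238 to 258% of Rpl37 and Rplp2-ps1 had 188 to 215% of Rplp2. Rpl34-ps1 had 93.3 to 95.1% of the counts of Rpl34, nearly the same share in every library. Rps27rt fell by 0.72 on the log2 scale in Control against Normal (SE 0.16, edgeR adjusted p = 0.0141), and Rpl14-ps1 fell by 0.50 (SE 0.14, edgeR adjusted p = 0.0430). When the counts of copies were added to their parent genes, Rps27 was at −0.70 in Control against Normal, and in RP against Normal 0 members passed by edgeR, where 1 member had an adjusted p just under the threshold before. The last 200 bases of 67 of the 83 members share at least 75 bases, at 95% identity or more, with another gene's transcript. This search found no other gene for Rpl37 or Rpl14, which have the copy rows Rpl37rt and Rpl14-ps1, so it misses some copies. The levels of single members are therefore uncertain. The ends of Rpl22l1, Rpl23a, Rpl31, Rpl32, Rpl35, Rpl5, Rps25 and Rps28 also overlap a gene on the other strand, and the strand counted is not given in the sources used here.

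The members with a pyrimidine run at the start include Rps27 and Rps15a, shown above. Over the 33 genes with a run the median log2 change in Control against Normal was −0.32, against −0.31 for the 29 matched members without one. The run depends on the listed start: the starts of Rpl35a gave longest runs of 4, 13 and 5. This split therefore cannot separate TOP mRNAs from others.

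Of 5 tested genes for ribosomal proteins or ribosome-bound proteins with other symbols (Fau and Rps27rt among them), 1 was lower in Control against Normal, Rps27rt, against 5.45% of all genes, and their median was −0.28. Fau, a small-subunit protein made fused to a ubiquitin-like domain, had 172 and 178 CPM in RP, 172, 179 and 173 CPM in Control and 188, 238 and 243 CPM in Normal (log2 change −0.35, SE 0.14, edgeR adjusted p = 0.136). In it every Control library was below every Normal library.

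Some of the genes that build ribosomes were lower too. Of 87 tested ribosome biogenesis genes, 24 were lower and 0 higher in Control against Normal by edgeR, against 5.45% and 4.99% of all genes, and their median log2 change was −0.40. Gnl3 (nucleostemin, a nucleolar GTPase) had 67.8 and 68.6 CPM in RP, 36.7, 38.7 and 44.4 CPM in Control and 117, 93.6 and 81.1 CPM in Normal, and fell by 1.29 on the log2 scale (SE 0.16, edgeR adjusted p = 0.00031). Its 3 groups did not overlap, with RP between Control and Normal, and its log2 change in RP against Control was 0.77 (SE 0.18, edgeR adjusted p = 0.133). Ddx56, a nucleolar RNA helicase, fell by 1.01, and Wdr43 and Nop14, both of the complex that processes the small-subunit precursor, fell by 0.95 and 0.89. The count was 16 without Normal 2, 10 without Control 1 and 9 without Control 3, where 6.16, 4.66 and 4.65% of all genes passed. It lay between 20 and 27 without Normal 1, Normal 3 or Control 2, against 14.2, 11.5 and 6.44% of all genes. The median of this list kept its sign without Normal 1, at −0.40, with 26 called, against 14.2% of all genes. With the Hba-a1 covariate, which cannot be told apart from the group, the list's median was −0.45, with 6 called, against 2.9% of all genes. With that covariate the median of the ribosomal proteins changed its sign, as given above, and the difference between the lists was not tested.

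The 37 tested mTORC1 components and regulators of TOP translation had a median log2 change of −0.042 in Control against Normal, with 4 lower and 0 higher by edgeR, against 5.45% and 4.99% of all genes. Eif4ebp1, a repressor of cap-dependent translation that mTORC1 switches off, had 99.5 and 92.5 CPM in RP, 68.5, 59.4 and 60.7 CPM in Control and 166, 308 and 287 CPM in Normal, and fell by 2.01 (SE 0.21, edgeR adjusted p = 7.77e-05). Sesn1 and Ddit4, both inhibitors of mTORC1, fell by 1.35 and 1.34, and the kinase gene Mtor fell by 0.55 (edgeR adjusted p = 0.0487). In either direction 10.8% of this list was called, near the 10.4% of all genes. The genes called hold inhibitors and the kinase itself. Over the whole list, 21 of the 37 had a log2 change below 0, against 49.9% of all genes.

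Of 32 tested TOP mRNAs that encode no member, with Fau named above among them, 6 were lower and 0 higher in Control against Normal by edgeR, against 5.45% and 4.99% of all genes, and their median log2 change was −0.37. Pabpc1, the poly(A)-binding protein of the cytoplasm, fell by 0.92 and had 133 and 191 CPM in RP, 159, 175 and 146 CPM in Control and 314, 282 and 316 CPM in Normal. Npm1 (nucleophosmin, which also stands in the biogenesis list), Nap1l1, a histone chaperone, and Gas5, a host gene of small nucleolar RNAs, fell by 0.65, 0.70 and 0.69. In Pabpc1 Normal 1 was as high as Normal 3, whereas Normal 1 was the lowest Normal library for 80 of the 83 members. Without Normal 1, 17 of the 32 passed, against 14.2% of all genes, and with the Hba-a1 covariate 0 did by edgeR, against 2.9%. The count was 2 without Normal 2, 1 without Control 1 or Control 3, 3 without Control 2 and 5 without Normal 3. In these fits, in the same order, 6.16, 4.66, 4.65, 6.44 and 11.5% of all genes passed.

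Of 77 mitochondrial ribosomal proteins, 1 was higher in Control against Normal by edgeR, Mrpl28 (log2 change 0.53, adjusted p = 0.0431), against 4.99% of all genes, and 0 were lower, against 5.45%. The median was 0.047, and it turned to −0.034 without Normal 1. The count was 2 without Normal 1 or Normal 3, against 14.2 and 11.5% of all genes. It was 0 without Normal 2 or any 1 of the Control libraries, against 4.65 to 6.44% of all genes. In RP against Normal, 3 were higher, Mrpl45, Mrpl46 and Mrpl12, at log2 changes of 0.75, 0.72 and 0.66, against 1.67% of all genes. In the same comparison, 1 biogenesis gene (Wdr43, −0.71), 2 mTORC1 genes (Eif4ebp1, −1.40, and Sesn1, −0.95) and 2 TOP mRNAs (Pabpc1, −0.91, and Nap1l1, −0.72) passed, all lower, against 0.835% of all genes. These counts in RP against Normal rested on single libraries: leaving out 1 library at a time gave 0 to 6 mitochondrial ribosomal proteins (6 without Normal 1 and 0 without Normal 2 or RP 1), 0 to 4 biogenesis genes, 0 to 3 mTORC1 genes and 0 to 5 TOP mRNAs, with the highest count of each list without Normal 1 and 0 in each without RP 1. Of all genes, 5.13% passed in RP against Normal without Normal 1 and 1.05% without Normal 2. The fit without RP 1 keeps a single RP library, so its counts carry little weight. In RP against Control, 0 genes of these lists passed edgeR's test. At an unadjusted p under 0.05, 11 biogenesis genes, 4 mTORC1 genes, 1 TOP mRNA and 4 mitochondrial ribosomal proteins were higher there. By the same threshold 1 mitochondrial ribosomal protein was lower, against 3.95% higher and 5.03% lower among all genes. DESeq2 called 1 biogenesis gene in RP against Control, against 0.85% of all genes.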

How the data were processed

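Each deposited table held read counts per gene symbol for 1 library, whole numbers that the authors left unnormalized, per the file headers and the values. Bowtie2, edgeR and the mm10 build are named, with no version, in the submitters' processing notes, and the counting tool, the strand counted and the annotation are not given in the sources used here. Libraries were grouped by title. Members and lists were chosen with earlier results of these data known.

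All 13174 rows that passed filterByExpr were fitted in 1 model of the 8 libraries with edgeR 4.0.16 (TMM, quasi-likelihood test, 2-sided, Benjamini-Hochberg threshold 0.05) in R 4.3.3. The procedure was tested on simulated data. There all genes had the same dispersion and were drawn independently, so shifts that the members share within a library are not covered. CPM used TMM-scaled library sizes, and log2 deviations a prior count of 2. For 35 symbols that occur in several rows, the 44 further rows stayed separate. Paralogue ratios were compared with exact permutation tests of log2 ratios. Alternatives were RLE and upper-quartile scaling, removal of haemoglobin genes, no filter, a mean of at least 5 CPM, DESeq2 1.42.0, the 2 groups alone, a block for the replicate number and each library left out in turn. Added copy rows, an Hba-a1 covariate and all alternatives for the other lists were chosen after seeing the data. So was leaving each library out of the Rpl3l to Rpl3 ratio. A single remaining RP library was taken to have the spread of the other groups.

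Genes named were the paralogue pairs, members past the threshold, the 3 highest and 3 lowest, Rplp0, Rplp1, Rplp2 and Rpsa, and at most 4 of each other list by smallest p. Shared 3′ ends were found with blastn 2.17.0 in GENCODE transcripts, and positions came from GENCODE vM21. The MEF2 site was searched as its consensus on both strands. Figures were drawn with matplotlib 3.10.9.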

Additional observations from a re-analysis of the deposited data

How the results depend on the processing

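In Control against Normal, the count of ribosomal protein genes called was 2 with haemoglobin genes removed, 5 with no filter, 10 by DESeq2 and 0 with the Hba-a1 covariate, and from 0 to 56 when each library was left out, against 1. Of all genes, 382 were called with the covariate and 608 to 1858 with a library left out, against 1376. Upper-quartile scaling called 761 genes higher and 615 lower, against 658 and 718. In RP against Control, the members called were 0 throughout, and the count over all genes was 204 with no filter, 11 at a mean of 5 CPM, 112 by DESeq2, 121 with the 2 groups alone and 8 to 72 with a library left out, against 23. In RP against Normal, the members called were 0 with RLE scaling, upper-quartile scaling, the 2 groups alone, added copy rows and the covariate, 2 with no filter, 3 by DESeq2 and 0 to 8 with a library left out, against 1. Over all genes the count was 718 with no filter, 653 by DESeq2, 100 with the 2 groups alone, 104 with the covariate and 57 to 670 with a library left out, against 330. The cause of these moves was not tested.

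Same-numbered Control and Normal libraries did not deviate together (r of −0.067, −0.019 and −0.042 across genes), so the numbers were not taken as pairs. With the replicate block, 0 members were called in RP against Normal, and the medians of the members kept their sign. With it, the log2 change was 0.043 for Rplp0 in RP against Control and 0.071 for Rps27l in RP against Normal, where it was −0.014 and −0.052 without the block.

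The members' median log2 change in Control against Normal lay between −0.46 and −0.21 under every alternative except the covariate, which gave 0.15. The log2 ratio of Rpl3l to Rpl3 kept its direction with each library left out, at 0.51 to 0.84 in Control against Normal, 0.29 to 0.57 in RP against Control and 0.94 to 1.27 in RP against Normal.

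Single genes that did not pass the test changed sign in places. With the covariate, log2 changes in Control against Normal were 0.16 for Rpl22, 0.32 for Rpl22l1, 0.43 for Rps27l, 0.034 for Rpl7, −0.13 for Rpl7l1, 0.25 for Rpl39, 0.095 for Rps4x, 0.27 for Rplp1, 0.27 for Rps14, 0.37 for Rplp0 and 0.11 for Rplp2. In RP against Control they were −0.034 for Rps27l, −0.034 for Rpl39 and −0.00255 for Rplp1. In RP against Normal they were 0.17 for Rpl22, 0.34 for Rpl22l1, 0.40 for Rps27l, 0.21 for Rpl7, 0.22 for Rpl39, 0.34 for Rpl39l, 0.18 for Rps4x, −0.33 for Rps4l, 0.27 for Rplp1, 0.39 for Rps14, 0.28 for Rplp0 and 0.20 for Rplp2. In RP against Control, Rps27 was at 0.047 with added copy rows and Rpl39 at −0.000545 with upper-quartile scaling, and in RP against Normal Rps14 was at 0.0032 with the 2 groups alone.

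Leaving out each library gave these ranges. In Control against Normal, Rps27l lay between −0.23 and 0.095, Rpl7l1 between −0.053 and 0.075 and Rps4l between −0.31 and 0.13. In RP against Control, Rpl22 lay between −0.016 and 0.16, Rpl22l1 between −0.023 and 0.24, Rps27 between −0.37 and 0.011, Rps27l between −0.075 and 0.16, Rpl39 between −0.092 and 0.15, Rplp1 between −0.022 and 0.17 and Rplp0 between −0.088 and 0.059. In RP against Normal, Rpl22l1 lay between −0.37 and 0.057, Rps27l between −0.18 and 0.16, Rpl7 between −0.28 and 0.0093, Rpl39l between −1.63 and 0.52, Rps4l between −0.11 and 0.31 and Rps14 between −0.20 and 0.15.

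Depth limits Rpl39l, with at most 17 counts in a library.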
